A study of Homo sapiens with 3 samples.

Results

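Hypoxia and glycolysis genes were examined on 3 arrays of HEK293T, a long-established line from human embryonic kidney that carries the SV40 large T antigen, with wild-type TRAF7, mutant TRAF7 or an empty vector. The set was a list of 38 genes given by name and drawn up with earlier results of these arrays known. A gene was read from the probe set whose only symbol in the platform annotation was that gene, and from the probe set with the highest mean where there were several. Of the 38 genes, 36 were measured in this way, out of 22395 genes measured in all. CA9 had no such probe set and BNIP3 only one that it shares with another symbol, so neither has a value here. A further 3 genes, SLC2A3, EGLN3 and ANKRD37, read below the level filter, a mean log2 intensity of 1.21 over the arrays, which is the median over all genes. The 33 genes at or above it are counted below against the 11198 genes that pass the same filter.

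The cells were transduced with pCDF1 lentivirus that was empty (the empty vector group) or that held TRAF7, either wildtype or with the G536S mutation, and cells with stable expression were selected in puromycin. All 3 groups were thus infected and puromycin-selected, and all were growing asynchronously in medium with 10% fetal bovine serum. TRAF7 is a ubiquitin ligase of the TRAF family, and G536S changes its WD40 repeat region. The titles give the line as HEK293T and the cell line field as HEK239T. Neither the promoter that drives the construct nor whether a line was a pool or a clone is given in the sources used here. There is 1 array for each group, so the spread between replicates is unknown and no test was made. The construct, the culture, the extraction and the array cannot be told apart.

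Glycolysis turns glucose into pyruvate and, where pyruvate is not oxidised in mitochondria, into lactate. When oxygen is low, the hypoxia-inducible factors (HIF), made of an oxygen-regulated alpha subunit (HIF1A or EPAS1) and the stable partner ARNT, bind a short DNA element near glucose transporter, glycolytic enzyme and angiogenic genes and raise their transcription. In normal oxygen the prolyl hydroxylases EGLN1 and EGLN3 mark the alpha subunit, the VHL ubiquitin ligase recognises the mark, and the subunit is degraded, so that control of HIF lies mainly in protein stability, which these arrays do not read. EGLN3 is itself a well known HIF target, as is EGLN1, which forms a feedback loop.

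The core letters of the HIF element were looked up in the promoters of the list, as RefSeq sequence of build GRCh38.p14. Each window runs from 250 bases before to 50 bases after a listed start of the gene. Of the 38 genes, 33 matched an entry. The windows of GPI, PFKP, TPI1, GAPDH, PGAM1, PKM, PFKFB4, P4HA2 and KDM3A do not lie at the gene's annotated 5′ end. ACGTG on either strand was present in 14 of the 33 windows (42.4%), against 27.5% of 8802 genes that passed the level filter and had an entry and 21.6% of 27305 genes in the table. GCGTG on either strand was present in 17 (51.5%), against 52.5% and 36.4%, and at least one of the pair was present in 25 (75.8%), against 65.0% and 48.4%. The letters CACGTG hold ACGTG on both strands and so count as a match on each. The 33 windows include CA9, BNIP3, ANKRD37 and EGLN3, which had no value or did not pass the filter. Among the genes of the list that passed, 11 had ACGTG and 18 did not, and 22 had either core and 7 did not. A match in these letters describes the sequence only.

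The 4 promoters shown here belong to genes with a log2 difference of at least 0.32 in size (25% more intensity) between some pair of arrays, hold ACGTG before the start, and lie at the gene's annotated 5′ end. They are shown because the genes go different ways on the arrays although each holds the element's core before its start. Each is printed 5′ to 3′ on the gene's strand for the 250 bases before the start, with ACGTG and GCGTG on either strand in capitals.
HK2 (chr2:74833877-74834126, plus strand): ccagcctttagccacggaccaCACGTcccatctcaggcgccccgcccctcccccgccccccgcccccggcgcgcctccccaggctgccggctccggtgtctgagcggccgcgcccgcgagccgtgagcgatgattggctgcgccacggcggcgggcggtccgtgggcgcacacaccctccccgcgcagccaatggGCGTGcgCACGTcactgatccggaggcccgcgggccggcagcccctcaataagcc
PGK1 (chrX:78103998-78104247, plus strand): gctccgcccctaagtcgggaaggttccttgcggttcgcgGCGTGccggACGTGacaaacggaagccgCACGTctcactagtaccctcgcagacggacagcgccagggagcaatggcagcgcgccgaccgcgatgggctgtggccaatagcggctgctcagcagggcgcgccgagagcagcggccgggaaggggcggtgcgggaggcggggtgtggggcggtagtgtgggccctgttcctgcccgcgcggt
EGLN1 (chr1:231422288-231422537, minus strand): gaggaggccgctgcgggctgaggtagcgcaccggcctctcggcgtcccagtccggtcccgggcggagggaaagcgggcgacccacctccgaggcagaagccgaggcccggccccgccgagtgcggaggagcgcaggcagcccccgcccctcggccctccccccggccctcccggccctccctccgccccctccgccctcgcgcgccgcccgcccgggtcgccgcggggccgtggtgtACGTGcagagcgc
P4HA1 (chr10:73096867-73097116, minus strand): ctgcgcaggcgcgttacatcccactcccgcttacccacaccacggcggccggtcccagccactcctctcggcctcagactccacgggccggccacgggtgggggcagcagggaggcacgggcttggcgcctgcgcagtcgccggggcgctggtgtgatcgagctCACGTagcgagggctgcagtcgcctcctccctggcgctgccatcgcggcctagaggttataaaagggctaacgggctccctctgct

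The matches of HK2 begin 229, 55 and 48 bases before the start, and those of PGK1 at 211, 202 and 183 bases. EGLN1 has a single match at 13 bases and P4HA1 one at 86 bases. The promoters of HK1, PFKP, TPI1, PGAM1, PDK1, ARNT, EGLN3 and P4HA2 had neither core in the window used. For PFKP, TPI1, PGAM1 and P4HA2 that window does not lie at the gene's annotated 5′ end, where the sequence was not searched. In G536S minus wild type the median log2 difference was -0.13 over 22 passing genes with either core and -0.12 over 7 without. In wild type minus empty vector these medians were 0.06 and 0.11, and in G536S minus empty vector -0.07 and 0.01. For ACGTG alone, over 11 genes with it and 18 without, the medians in the latter comparison were 0.07 and -0.08. They were -0.06 and 0.07 in wild type minus empty vector and -0.07 and -0.14 in G536S minus wild type, so the direction varied between comparisons. Over all genes that passed, the medians with and without ACGTG were 0.11 and 0.10 in G536S minus empty vector and 0.09 and 0.09 in wild type minus empty vector.

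As a check of the labels, the log2 intensity of TRAF7 was 5.66 on the empty vector array, 8.11 on the wild-type array and 7.35 on the G536S array. Of 10 markers listed for HEK293 cells, all 10 were measured and 7 passed the level filter, among them VIM, NEFL, INA, CDH2 and LIN28B, whereas KRT8, NEFM and TUBB3 did not. Of 14 markers of leukocytes, fibroblasts, endothelium and red cells, 10 were measured and 2 passed (CD68 and COL1A1). Their summed log2 intensity was between 11.5 and 12.1 on the 3 arrays, and PTPRC, CD3E, DCN, CDH5 and HBB were all at or below 1.00. The median gene that passed the filter read 0.08 higher with wild type than with the empty vector and 0.10 higher with G536S. Some values against the empty vector are therefore also given after normalization. Each array was centred on its own median over the genes that passed, or put through cyclic loess, a level-dependent normalization. Other values are given as deposited only. Between G536S and wild type the median gene differed by 0.01.

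**Figure D1:**
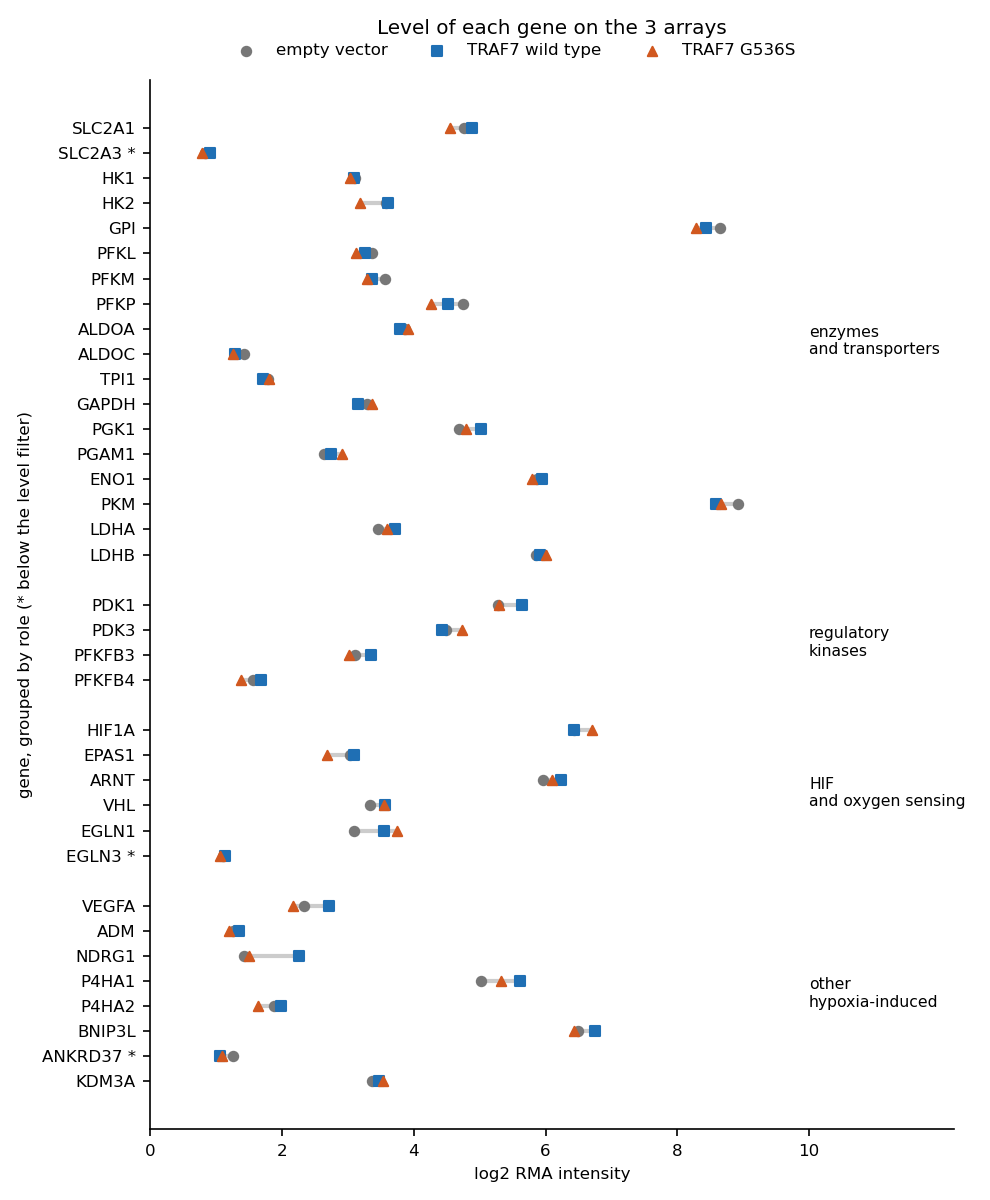
The plot gives the log2 RMA intensity (x axis) of each of the 36 measured genes (rows, grouped by role) on the empty vector (grey circle), wild-type (blue square) and G536S (orange triangle) arrays, with a bar over their range; an asterisk marks genes below the level filter. Points are to be compared within a row only, since probe sets of different genes are not on a common scale; NDRG1 has the widest range, from 1.43 to 2.26, with wild type highest.

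These arrays read RNA of whole cultures, in which fewer cells of a kind and less RNA per cell cannot be told apart. Glucose enters cells through the transporters SLC2A1 (GLUT1) and SLC2A3 (GLUT3). SLC2A1 had a log2 intensity of 4.76 with the empty vector, 4.89 with wild type and 4.55 with G536S, so that the G536S array was lowest and read 1.26-fold below wild type (log2 difference -0.33). SLC2A3 stayed near background on all 3 arrays, between 0.78 and 0.91.

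Hexokinases trap glucose by phosphorylation, HK1 as the broadly expressed form and HK2 as the form known to be induced in hypoxia and in tumours. HK2 read 3.58 for the empty vector, 3.61 for wild type and 3.19 for G536S. The first pair of arrays thus lay close together and the G536S array stood apart, 1.34-fold below wild type (-0.42) and 1.31-fold below the empty vector (-0.39). The latter difference was -0.51 after centring. HK1 spanned 3.03 to 3.11 over the same arrays. The change of HK2 relative to HK1 between wild type and G536S was -0.37, a contrast that does not move with a constant shift of an array.

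GPI, which converts glucose 6-phosphate to fructose 6-phosphate, and the phosphofructokinases, which catalyse the committed step, formed a run of genes that were highest with the empty vector, intermediate with wild type and lowest with G536S. GPI read 8.64, 8.43 and 8.28 in that order. PFKP, the platelet type, read 4.74, 4.52 and 4.27, and its difference of -0.47 between G536S and the empty vector (1.39-fold) was the lowest of the set. The liver type PFKL (3.37, 3.26 and 3.13) and the muscle type PFKM (3.56, 3.36 and 3.29) had the same order at smaller size, -0.24 and -0.27. After centring, the differences of PFKL and PFKM from the empty vector passed 0.32 in size as well, and those of GPI and PFKP became -0.48 and -0.59.

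Of the later enzymes ALDOC had that order as well, at low level, and ALDOA, TPI1 and GAPDH did not. ALDOA, which splits fructose bisphosphate, was between 3.79 and 3.91, TPI1, which interconverts the triose phosphates, between 1.72 and 1.80, and GAPDH, which oxidises the triose, between 3.16 and 3.36. As deposited, these 3 genes were lowest with wild type and highest with G536S, with differences between those arrays of 0.12, 0.08 and 0.20. After centring, quantile normalization or cyclic loess, wild type stayed lowest but the empty vector was highest. G536S minus empty vector was -0.07, -0.11 and -0.05 after centring. ALDOC, the aldolase isoform of neural tissue, was highest with the empty vector at 1.42, close to the level filter, and 0.14 and 0.17 lower in turn with wild type and G536S.

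PGK1, the first enzyme of the pathway to yield ATP and a textbook HIF target, read 4.69 for the empty vector, 5.01 for wild type and 4.80 for G536S. Its wild-type array was 0.32 above the empty vector, just inside that size, and the difference was 0.23 after centring. PGAM1, which moves the phosphate of phosphoglycerate, was 2.63, 2.75 and 2.90 in the same order. ENO1, the enolase that forms phosphoenolpyruvate, was between 5.80 and 5.94, with differences no larger than 0.14 in size.

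PKM, the pyruvate kinase, read 8.92 for the empty vector, 8.59 for wild type and 8.66 for G536S, so both construct arrays were below the empty vector, by 1.26-fold and 1.20-fold. In log2 these differences were -0.34 and -0.27, and -0.43 and -0.39 after centring. The probe set's part of the transcript was not determined, so the PKM splice forms cannot be told apart here. LDHA, which makes lactate from pyruvate and is HIF-induced, read 3.45, 3.72 and 3.60, and LDHB, the isoform that favours the reverse reaction, read 5.86, 5.91 and 6.01. Relative to LDHB, LDHA was thus 0.22 higher with wild type than with the empty vector and 0.22 lower with G536S than with wild type.

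Of the 17 enzyme and transporter genes that passed the filter, 10 were below 0 in wild type minus empty vector, 10 in G536S minus empty vector and 11 in G536S minus wild type, where 37.4%, 36.1% and 48.6% of all genes were. Their medians were -0.07, -0.08 and -0.07, beside medians of 0.08, 0.10 and 0.01 over all genes that passed. After centring, 13, 14 and 11 of the 17 were below 0, with medians of -0.16, -0.20 and -0.10. The medians of all genes were then -0.01, -0.02 and -0.02, so the genes that passed also leaned slightly below 0. The share of all genes below 0 after centring was not counted.

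The regulatory kinases of the set act beside the pathway. PDK1 and PDK3 phosphorylate pyruvate dehydrogenase and so hold pyruvate back from mitochondria, and PFKFB3 and PFKFB4 make fructose 2,6-bisphosphate, the activator of phosphofructokinase. PDK1, a known HIF target, read 5.27 for the empty vector, 5.64 for wild type and 5.29 for G536S. The wild-type array was alone in reading high, 1.29-fold above the empty vector and 1.27-fold above G536S. Its difference from the empty vector was 0.27 after centring and 0.25 after cyclic loess, below that size, whereas G536S minus wild type stayed at -0.37 under both.

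PDK3 had the opposite order, with 4.49, 4.43 and 4.74, so that G536S was highest and 1.24-fold above wild type (0.31). Set against each other, PDK1 minus PDK3 was 0.42 in wild type minus empty vector and -0.66 in G536S minus wild type, and both genes carried a part of the latter. PFKFB3 read 3.11, 3.35 and 3.01, and PFKFB4 read 1.57, 1.68 and 1.39. Both were highest with wild type and lowest with G536S, with G536S minus wild type at -0.34 and -0.29, so these isoforms differed by similar amounts. PFKFB4 lay close to the level filter of 1.21, so its difference rests on values near background.

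Among the HIF subunits, the alpha subunit genes diverged between the constructs. HIF1A read 6.43 for the empty vector, 6.43 for wild type and 6.71 for G536S, 1.21-fold above either. After centring, HIF1A with G536S was 0.16 above the empty vector and 0.25 above wild type. Its second probe set read only 1.06 to 1.11, near background, and cannot serve as a second reading. EPAS1, which encodes the alpha subunit HIF-2-alpha, read 3.04, 3.10 and 2.68, 1.33-fold lower with G536S than with wild type (-0.42) and 1.28-fold lower than with the empty vector (-0.35). The contrast of HIF1A with EPAS1 was 0.69 between G536S and wild type and 0.63 between G536S and the empty vector, while between wild type and the empty vector it was -0.06. The beta subunit gene ARNT read 5.96, 6.23 and 6.11 and was highest with wild type.

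VHL, the substrate receptor that recognises hydroxylated alpha subunits, was 3.34 with the empty vector, 3.57 with wild type and 3.55 with G536S, and the construct arrays differed by 0.02. EGLN1, the main oxygen sensor of the family, read 3.10, 3.55 and 3.74. Both construct arrays were above the empty vector, wild type by 1.37-fold (0.45) and G536S by 1.56-fold (0.64), the highest difference of the set in that comparison. After centring these became 0.35 and 0.52. Of the genes within 1 Mb of EGLN1 that passed the filter, by the order of genes in RefSeq, 10 were measured, with a median of 0.22 in G536S minus empty vector and a range from -0.54 to 0.98, so neighbours of EGLN1 also read higher on that array and their part in its difference was not tested. EGLN3 was near background at 1.06 to 1.14. Of the 5 genes of this group that passed the filter, all 5 were above 0 in wild type minus empty vector (median 0.23). After centring 3 were (median 0.14). In G536S minus empty vector 4, all but EPAS1, were above 0, with a median of 0.21 as deposited and 0.09 after centring. Of all genes, 62.6% and 63.9% were above 0 in these comparisons as deposited, with medians of 0.08 and 0.10. After centring the medians of all genes were -0.01 and -0.02.

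The other hypoxia-induced genes of the set act outside glycolysis. VEGFA, the angiogenic growth factor, read 2.34 for the empty vector, 2.71 for wild type and 2.16 for G536S. The wild-type array was highest, 1.30-fold above the empty vector and 1.46-fold above G536S, and the latter difference (-0.55) was lower than that of all but 2.28% of genes. NDRG1, a stress-responsive protein gene, read 1.43, 2.26 and 1.5. The wild-type array stood alone at 1.79-fold above the empty vector (0.84) and 1.70-fold above G536S (-0.77), with the other arrays 0.07 apart and close to the level filter of 1.21, so that these folds rest on values near background. NDRG1 is the member with the lowest difference between the constructs, and only 0.688% of genes were lower.

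P4HA1 and P4HA2 encode the catalytic subunits of the prolyl hydroxylases that modify collagen. P4HA1 read 5.01, 5.61 and 5.32, with both constructs above the empty vector, by 1.51-fold and 1.24-fold, and wild type highest. In log2 these differences were 0.59 and 0.31, and 0.50 and 0.19 after centring. Of the genes within 1 Mb of P4HA1, 23 passed the filter, with a median of 0.12 in wild type minus empty vector, and the highest of them was DDIT4 at 1.03. P4HA2 read 1.87, 1.98 and 1.64 and was 1.27-fold lower with G536S than with wild type (-0.34). BNIP3L, a mitophagy receptor, read 6.49, 6.75 and 6.44, with G536S minus wild type at -0.31, just outside 0.32.

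The remaining genes of this group varied less. ADM, a vasodilator peptide, was between 1.20 and 1.34, close to the filter, and highest with wild type. KDM3A, a histone demethylase, read 3.36, 3.47 and 3.53, with both constructs slightly above the empty vector. ANKRD37 was near background on all 3 arrays. Of the 7 genes of this group that passed the filter, all 7 were above 0 in wild type minus empty vector (median 0.26), or 6 after centring and 5 after quantile normalization. Above 0 were 3 in G536S minus empty vector (median -0.05) and 1, KDM3A, in G536S minus wild type (median -0.31). Of all genes, 62.6%, 63.9% and 51.4% were above 0 in these comparisons as deposited, with medians of 0.08, 0.10 and 0.01. In wild type minus empty vector the median of all genes was -0.01 after centring and -0.02 after quantile normalization. That of the 7 genes was 0.16 under both. The mean levels of VEGFA, NDRG1 and P4HA2 lay below 2.87, the 75th percentile of all genes.

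The first comparison set wild-type TRAF7 against the empty vector and asked which genes read differently in cells given the wild-type protein. Higher by at least 0.32 were 6 of the 33 genes (PGK1, PDK1, EGLN1, VEGFA, NDRG1 and P4HA1), 18.2%, where 19.2% of all genes were. Lower by as much was 1 gene, PKM (3.03%), where 7.25% of all genes were. At the 1.5-fold size NDRG1 and P4HA1 were higher (6.06%, against 5.42% of all genes) and none was lower (1.79% of all genes). Above 0 were 22 of the 33 genes (66.7%, against 62.6%). The median was 0.08, the same as that of all genes to 2 decimals. As deposited, the shares of the set were thus near those of all genes in this comparison, apart from the lower count of 1. After centring and after cyclic loess, only EGLN1, NDRG1 and P4HA1 stayed at least 0.32 higher, where 11.9% of all genes were under both.

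The G536S mutant was compared with the same empty vector array, so the comparisons against the empty vector are not independent. EGLN1 alone was higher by at least 0.32, 1 of 33 genes (3.03%, against 21.2% of all genes), and it was also the 1 gene at least 1.5-fold higher (6.07% of all genes). Lower by at least 0.32 were 4 genes, HK2, GPI, PFKP and EPAS1 (12.1%, against 8.14%), and none was 1.5-fold lower (2.08% of all genes). Below 0 were 17 of the 33 genes (51.5%, against 36.1%). The median was -0.05, and 0.15 below the median of all genes. The count of 4 became 9 after centring and after cyclic loess and 10 after quantile normalization, with SLC2A1, PFKL, PFKM, PKM and P4HA2 added under all 3. The share of all genes that were as much lower became 14.5%, 13.6% and 15.4% in that order.

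**Figure D2:**
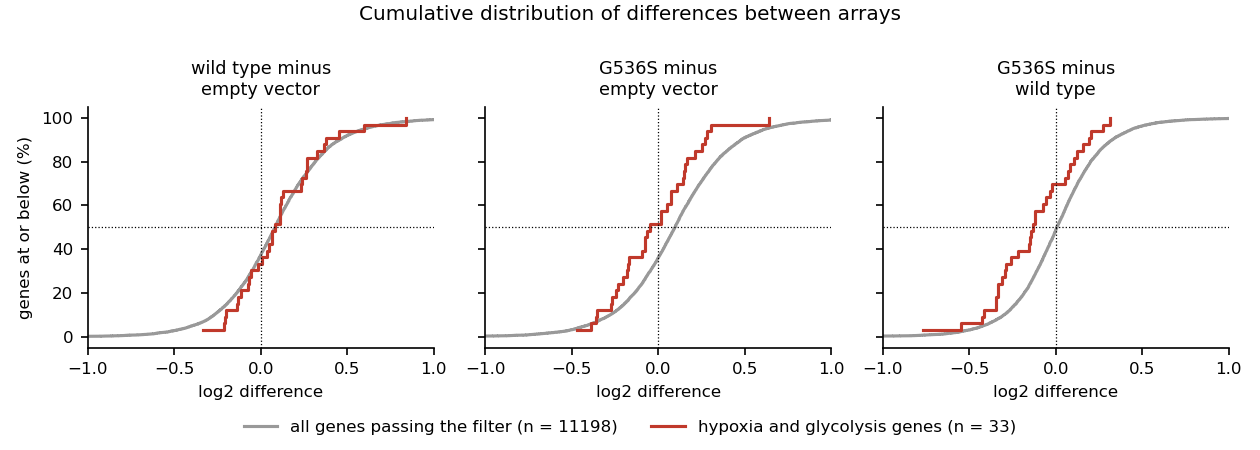
Each panel plots, for 1 pair of arrays, the share of genes (y axis, %) at or below a log2 difference (x axis), for the 33 hypoxia and glycolysis genes that passed the filter (red) and for all 11198 genes that passed (grey). The red line crosses 50% at 0.08 in wild type minus empty vector, on the grey line, and at -0.05 and -0.13 in the panels with G536S, to the left of the grey medians of 0.10 and 0.01.

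The G536S array was then compared directly with the wild-type array. TRAF7 itself read 7.35 with G536S and 8.11 with wild type, so the mutation and the level of the construct cannot be told apart here. Lower with G536S by at least 0.32 were 8 of the 33 genes, namely SLC2A1, HK2, PDK1, PFKFB3, EPAS1, VEGFA, NDRG1 and P4HA2. That is 24.2% of the set, where 8.67% of all genes were as low. None of the 33 was higher by as much, where 10.2% of all genes were, and PDK3 came nearest at 0.31. At the 1.5-fold size 1 gene, NDRG1, was lower (3.03%, against 1.81% of all genes) and none was higher (2.17% of all genes). Below 0 were 23 of the 33 genes (69.7%, against 48.6%), and the median was -0.13. All 8 genes kept a difference past -0.32 after quantile normalization, centring and cyclic loess, each of which added BNIP3L.

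**Figure D3:**
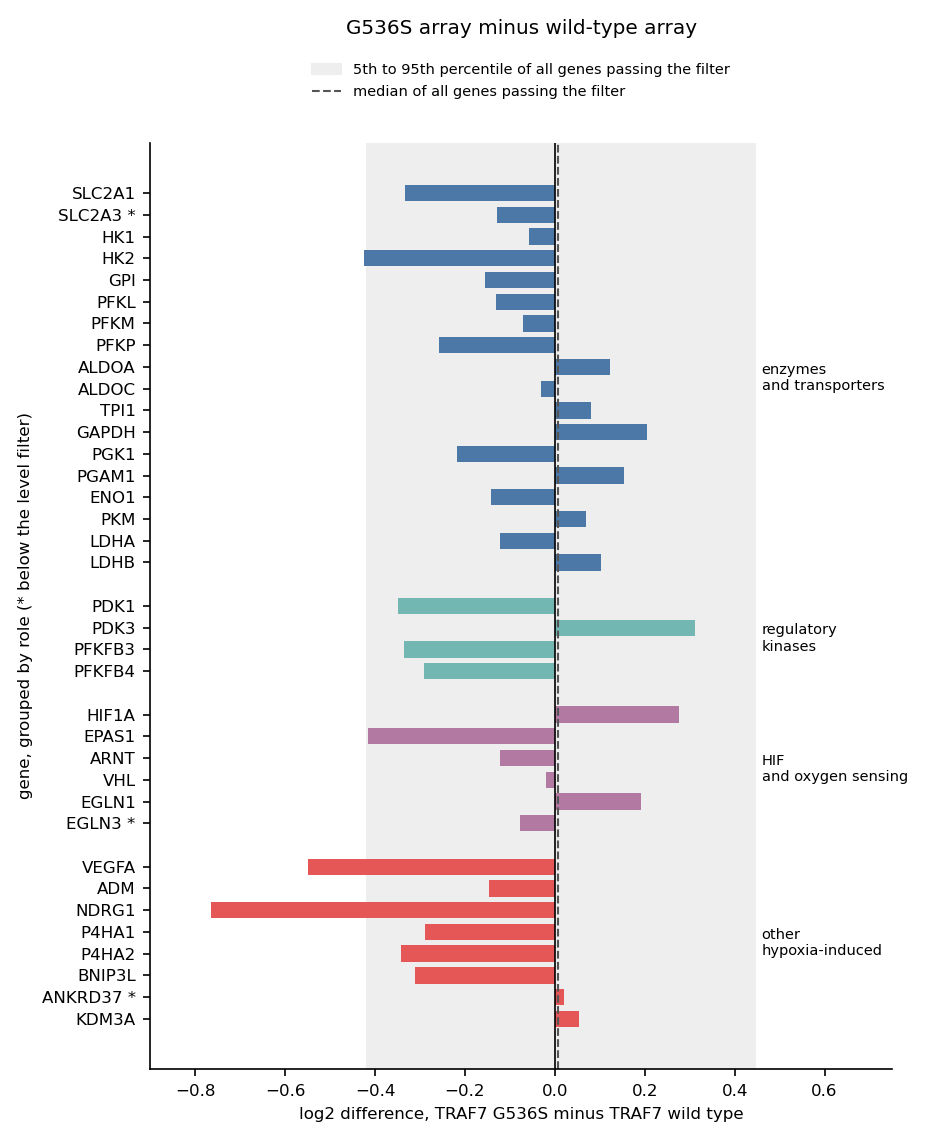
Bars give the log2 difference of G536S minus wild type (x axis) for each measured gene (rows, coloured by role); the grey band spans the 5th to 95th percentile of all genes that passed the filter (-0.42 to 0.44) and the dashed line is their median (0.01). NDRG1, VEGFA and HK2 lie at or beyond the lower edge of the band, and no gene reaches its upper edge.

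The order of the 3 arrays within each gene gives the same data without a size threshold. The wild-type array was highest for 17 of the 33 genes (51.5%, against 36.1% of all genes), the G536S array for 9 (27.3%, against 40.0%) and the empty vector array for 7 (21.2%, against 23.9%). The G536S array was lowest for 16 (48.5%, against 24.7%), the empty vector array for 12 (36.4%, against 50.4%) and the wild-type array for 5 (15.2%, against 24.9%). After centring, the G536S array was lowest for 19 genes (57.6%, against 35.9%), whereas the array most often highest became the empty vector, with 14 genes (42.4%, against 39.4% of all genes) to 13 for wild type (39.4%, against 31.4%). The lead of the wild-type array over the empty vector in this count therefore depends on scaling.

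As deposited, the 7 genes highest with the empty vector were HK1, GPI, PFKL, PFKM, PFKP, ALDOC and PKM, all enzymes of glycolysis. The 14 after centring added the enzymes HK2, ALDOA, TPI1, GAPDH and ENO1, and also EPAS1 and ADM. The 17 genes highest with wild type included 6 from the regulatory kinase and oxygen sensing groups and 6 of the 7 other hypoxia-induced genes that passed, but only SLC2A1, HK2, PGK1, ENO1 and LDHA among the 17 enzymes and transporters. The genes highest with G536S as deposited were ALDOA, TPI1, GAPDH, PGAM1, LDHB, PDK3, HIF1A, EGLN1 and KDM3A. After centring, ALDOA, TPI1 and GAPDH were no longer among them.

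Genes of the same pathways outside the set were read from lists drawn up for comparison. Of 41 other hypoxia-induced genes 36 were measured and 30 passed the filter. In G536S minus wild type 24 of the 30 were below 0, 8 were lower and 1 was higher by at least 0.32, and the median was -0.17. Of all genes, 48.6% were below 0, 8.67% were as much lower and 10.2% as much higher, shares against which the counts of the lists that follow are read too. DDIT4, a stress-induced inhibitor of mTORC1, read 4.89 for the empty vector, 5.92 for wild type and 4.30 for G536S. BHLHE40, a repressor of the circadian and hypoxia responses, read 3.79, 3.91 and 2.76, so G536S alone was low. HILPDA, a lipid droplet protein (2.80, 3.56 and 2.83), and HMOX1, the haem oxygenase (2.16, 2.85 and 2.25), were high with wild type alone, as NDRG1 was. ADORA2B, an adenosine receptor, read 5.38, 5.09 and 4.56 and had the order of GPI and PFKP. In wild type minus empty vector 21 of the 30 were above 0, with 8 higher by at least 0.32, none as much lower and a median of 0.13, where 62.6%, 19.2% and 7.25% of all genes were and their median was 0.08. After centring these became 17 above 0, 5 higher (11.9% of all genes), 2 lower (12.8% of all genes) and a median of 0.04, and after quantile normalization 15 of the 30 were above 0, whereas the 24 below 0 in G536S minus wild type stayed 24 under both. The median of all genes in wild type minus empty vector was -0.01 after centring and -0.02 after quantile normalization.

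Of 14 other HIF regulators 12 were measured and 11 passed. CITED2, which competes with HIF for the coactivators CREBBP and EP300, read 5.04, 5.27 and 4.52 and was lowest with G536S (-0.76 against wild type), and ARNT2, a relative of ARNT, read 2.22, 1.48 and 2.10 and was lowest with wild type. The median of this list was 0.08 in G536S minus wild type, with 8 of 11 above 0. Other glycolytic isoforms and pyruvate and lactate genes, of which 26 of 30 were measured and 13 passed, had a median of -0.01 in that comparison, with 2 lower by at least 0.32 and none higher by as much. The pentose phosphate genes, 7 of 9 measured and all 7 passing, had a median of -0.14, with none lower and 1 higher by at least 0.32.

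The tricarboxylic acid cycle genes, 17 of 21 measured and all 17 passing, had a median of -0.03 in G536S minus wild type, with none lower and 2 higher by at least 0.32. In this list OGDH, a subunit of the oxoglutarate dehydrogenase complex, was the gene named by size, at 6.03 with the empty vector, 5.42 with wild type and 5.56 with G536S. Medians in G536S minus wild type were thus -0.31 for the regulatory kinases and for the other hypoxia-induced genes of the set, -0.17 for the hypoxia-induced genes outside it and -0.14 for the pentose phosphate genes. They were -0.07 for the enzymes and transporters and -0.02 for the HIF and oxygen sensing genes of the set. The other glycolytic isoforms were at -0.01, the tricarboxylic acid cycle genes at -0.03 and the other HIF regulators at 0.08. The regulatory kinases are only 4 genes, and PDK3 among them was at 0.31.

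**Figure D4:**
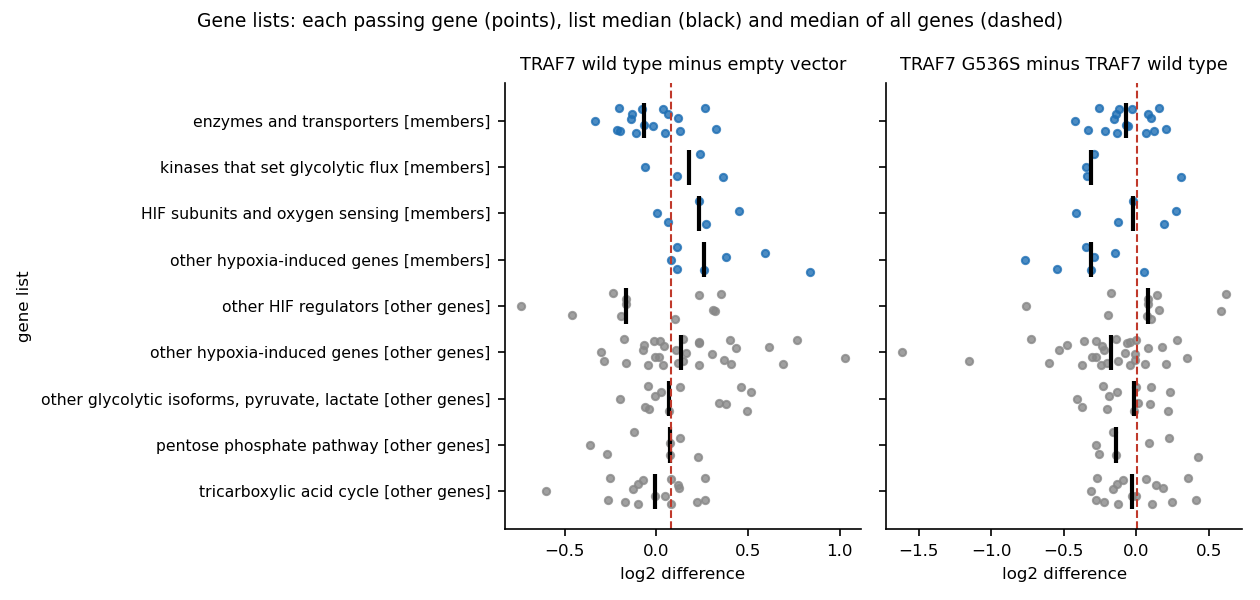
Points give the log2 difference (x axis) of each gene that passed the filter, by list (rows; blue for the genes of the set, grey for other genes of the pathways), in wild type minus empty vector (left) and G536S minus wild type (right); black bars are list medians and the dashed line is the median of all genes. The other hypoxia-induced genes of the set have a median of 0.26 on the left and -0.31 on the right, and those outside the set 0.13 and -0.17; both panels use the wild-type array, so an unusual value there moves a gene in opposite directions.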

How the data were processed

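Total RNA (300 ng) from 3 cultures was labelled as biotinylated cRNA for Affymetrix arrays, per the labels' protocols. The authors deposited one log2 intensity for each probe set and array, and the submitters' processing notes name RMA, with no version in the sources used here. Base 2 was inferred from the highest value, 12.57. The table holds 53617 probe sets, of which 23871 name 1 gene in the platform annotation, 1842 several and 27904 none. Symbols were updated through the Entrez ID in RefSeq (GRCh38.p14): 22572 matched and 1299 kept the older symbol. Differences were taken as the first array minus the second over all genes, with no test. The members, the sizes of 0.32 and 0.58 (1.5-fold) and all lists were chosen with earlier results of these data known. Named with all 3 levels were genes of the set at least 0.32 apart anywhere, others where their role is described, and of each comparison list up to 5 genes at least 1.5-fold apart. The limma package 3.58.1 (R 4.3.3) gave quantile and cyclic loess normalizations, and other steps used Python 3.11.15 with numpy 2.4.6 and pandas 2.3.3, with matplotlib 3.10.9 for plots. Counts of genes past a size were first tested on simulated data with known differences. Precision is limited by the 1 array in each group. Protein sequences were not used here.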

Additional observations from a re-analysis of the deposited data

Results flagged for a closer look

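Among the genes of the set that passed the filter, 6 lay on opposite sides of the empty vector in the wild-type and G536S arrays and were at least 0.32 apart between those arrays (log2). This difference between the constructs was not tested. The share of all genes that met both conditions was not counted, so the 6 genes cannot be called many or few. G536S minus wild type was -0.33 for SLC2A1, -0.42 for HK2, -0.34 for PFKFB3, -0.42 for EPAS1, -0.55 for VEGFA and -0.34 for P4HA2. The side on which wild type lay turned under quantile normalization for SLC2A1 (0.13 to -0.01), HK2 (0.03 to -0.10), EPAS1 (0.06 to -0.08) and P4HA2 (0.11 to -0.01), and for HK2 and EPAS1 also after centring and cyclic loess. VEGFA and PFKFB3 kept opposite sides under all 3.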

How the results depend on the processing

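No paired analysis was possible because each group has 1 array. Of 7 alternatives, averaging probe sets of a gene and a floor at the 25th percentile (0.86) moved no count of the set. A median was taken as moved when it shifted by over 0.1, and a count when it changed by over 1.5 times. In wild type minus empty vector, the set's median of 0.08 became -0.041 after quantile normalization, with -0.01 after centring and after cyclic loess. The 6 genes higher by at least 0.32 became 2, 3 and 3 in that order. The 1 lower gene became 4 under quantile normalization and 2 under cyclic loess. Among all genes the share as much higher fell from 19.2% to 11.2%, 11.9% and 11.9% in the same order. Their share as much lower rose from 7.25% to 14.1%, 12.8% and 12.6%, so the counts of the set moved in the direction of all genes. In G536S minus empty vector, the median of -0.05 became -0.17 after centring and 0.01 under a stricter level filter (the 75th percentile, 2.87), and the 4 lower genes became 10, 9 and 9 after quantile normalization, centring and cyclic loess. The share of all genes as much lower in this comparison rose from 8.14% to 15.4%, 14.5% and 13.6% in that order. The set's median relative to all genes was -0.15 there and -0.043 with no filter. Quantile normalization moved the median of all genes by -0.10 and -0.12 in these comparisons. In G536S minus wild type, the median lay between -0.12 and -0.16 under all 7 alternatives. The 8 lower genes became 9 under each of the 3 normalizations and 5 under the stricter level filter, which leaves 25 genes of the set. The share of all genes as much lower was 8.67% as deposited and 9.48%, 10.0% and 9.52% after quantile normalization, centring and cyclic loess. Under the stricter filter it was 9.04%. Of 42 differences of the 14 genes at least 0.32 apart somewhere, none past that size changed sign; 10 crossed it under quantile normalization, 6 after centring and 7 after cyclic loess. Most genes of the array sit near background, which limits SLC2A3, EGLN3, ANKRD37, ADM, ALDOC, PFKFB4, NDRG1, TPI1 and P4HA2. The comparison of protein sequences of related enzymes was not run.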
